A study of Mus musculus with 13 samples.

Results

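The 38 genes described here drive or mark the cell division cycle: 13 act around DNA synthesis (S phase) and 25 act in mitosis or its preparation. Each was read on an Affymetrix MOE430 array through its probe set, a group of short oligonucleotides for 1 transcript. Of the 38, 37 had a probe set annotated to that gene alone, out of 18193 genes with such a probe set. Ccnb1, cyclin B1, had none and has no value below. Where a gene had several, the probe set with the highest mean over the 13 arrays was used. All 37 passed the filter on low values, as did 15019 genes in total.

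The tissues were 3 adjoining parts of the lower urinary tract, taken from FVB/N mouse embryos at embryonic day 14. The embryos came from females mated with males carrying SMGA/EGFP, a transgene in which the smooth muscle gamma-actin promoter drives a green fluorescent protein, and that fluorescence guided the microdissection. Bladder was measured on 3 arrays (replicates 2, 6 and 8, of which replicate 2 is labelled primitive bladder), the urogenital sinus on 4 (replicates 1, 2, 6 and 7) and the urethra on 3 (replicates 1, 2 and 6). The labels put arrays numbered 1 or 2 at Theiler stage 21 and those numbered 6 to 8 at stage 22, and give the embryos' sex as unknown. A further 3 arrays held 1 kind of reference RNA from wild-type FVB/N mice at postnatal day 1, whole animals pooled from 4 males and 4 females. That reference differs from the regions in age, in tissue and in the transgene at once, so these cannot be told apart. The region samples were not pooled, but the labels do not say whether they came from separate embryos, and p-values therefore measure the spread between samples that may share an embryo.

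A dividing cell first licenses its replication origins by loading the MCM helicase with the help of Cdc6, then copies its DNA under cyclin E and cyclin A kinases, and finally condenses, aligns and separates its chromosomes under Cdk1, Aurora and Polo-like kinases. E2F factors switch on many S phase genes, while many mitotic genes are controlled through CCAAT boxes and a cell cycle homology region (CHR) close to their start sites. Because most of these transcripts are made in dividing cells and degraded afterwards, their RNA is widely used as a readout of proliferation in embryonic tissue. In bulk RNA such as this, fewer dividing cells and less RNA per dividing cell cannot be told apart.

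Promoters are shown first, to set the sequence motifs of the classes side by side. RefSeq promoters of the mouse build GRCm38.p6 (250 bases before to 50 after the start) were listed for 32 of the 38 members, namely 11 S phase and 21 mitosis members, Ccnb1 included. The 150 bases before the start are printed 5′ to 3′ on the gene's strand for the 2 S phase and 2 mitosis members with the smallest p between bladder and urogenital sinus among those with a promoter. Cdk1 was added after its motifs were seen, because it holds all 3 motif kinds. Capitals mark an E2F word (TTTCCCGC, TTTGGCGC, TTTCGCGC or TTTGCCGC), a CHR (TTTGAA or TTCGAA) or a CCAAT box (CCAAT), each read on both strands.
Cdc6, chr11:98908001-98908150, + strand: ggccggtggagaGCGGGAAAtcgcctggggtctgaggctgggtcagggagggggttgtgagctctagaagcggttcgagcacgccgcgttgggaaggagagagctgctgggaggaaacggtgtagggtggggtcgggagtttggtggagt
Mcm6, chr1:128359706-128359855, - strand: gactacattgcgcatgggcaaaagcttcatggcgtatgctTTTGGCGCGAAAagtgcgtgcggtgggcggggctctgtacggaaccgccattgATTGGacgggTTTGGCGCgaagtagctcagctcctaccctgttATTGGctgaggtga
Kif23, chr9:61946800-61946949, - strand: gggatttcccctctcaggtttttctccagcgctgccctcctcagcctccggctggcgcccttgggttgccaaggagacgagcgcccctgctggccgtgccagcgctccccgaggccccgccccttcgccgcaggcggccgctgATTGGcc
Bub1, chr2:127831860-127832009, - strand: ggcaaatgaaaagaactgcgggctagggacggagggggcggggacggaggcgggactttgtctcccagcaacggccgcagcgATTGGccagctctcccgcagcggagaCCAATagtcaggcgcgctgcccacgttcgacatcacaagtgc
Cdk1, chr10:69352913-69353062, - strand: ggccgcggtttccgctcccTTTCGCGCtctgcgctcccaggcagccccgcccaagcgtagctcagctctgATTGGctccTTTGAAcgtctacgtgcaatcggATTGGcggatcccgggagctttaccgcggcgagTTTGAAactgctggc

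The Cdc6 stretch held 1 E2F word, 138 bases before the start. Mcm6 held E2F words 110, 106 and 47 bases before the start, of which the first pair overlap. In Kif23 and Bub1 the CHR lay just beyond the printed stretch, starting at base 3 after the start in Kif23 (TTTGAA) and at base 15 in Bub1 (TTCGAA). Cdk1 held TTTGAA 71 and 15 bases before the start.

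Over the whole 300-base window, an E2F word occurred in 5 of 11 S phase members and in 1 of 21 mitosis members, against 2.60% of the 27025 genes in the promoter table. A CHR occurred in 17 of 21 mitosis members and in 2 of 11 S phase members, against 21.7% of all genes. Many of these lay after the start: in the 250 bases before it, 9 of 21 mitosis members held a CHR, against 19.6% of all genes. A CCAAT box occurred in 19 of 21 mitosis members and 8 of 11 S phase members, against 41.1% of all genes. Among S phase members with a promoter, Ccne1, Mcm2, Pcna, Rrm1, Rrm2 and Tyms held none of the E2F words, and Ccne1, Tyms, Birc5 and Nusap1 held none of the 3 motif kinds. These are matches of letters, not measured binding.

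**Figure D1:**
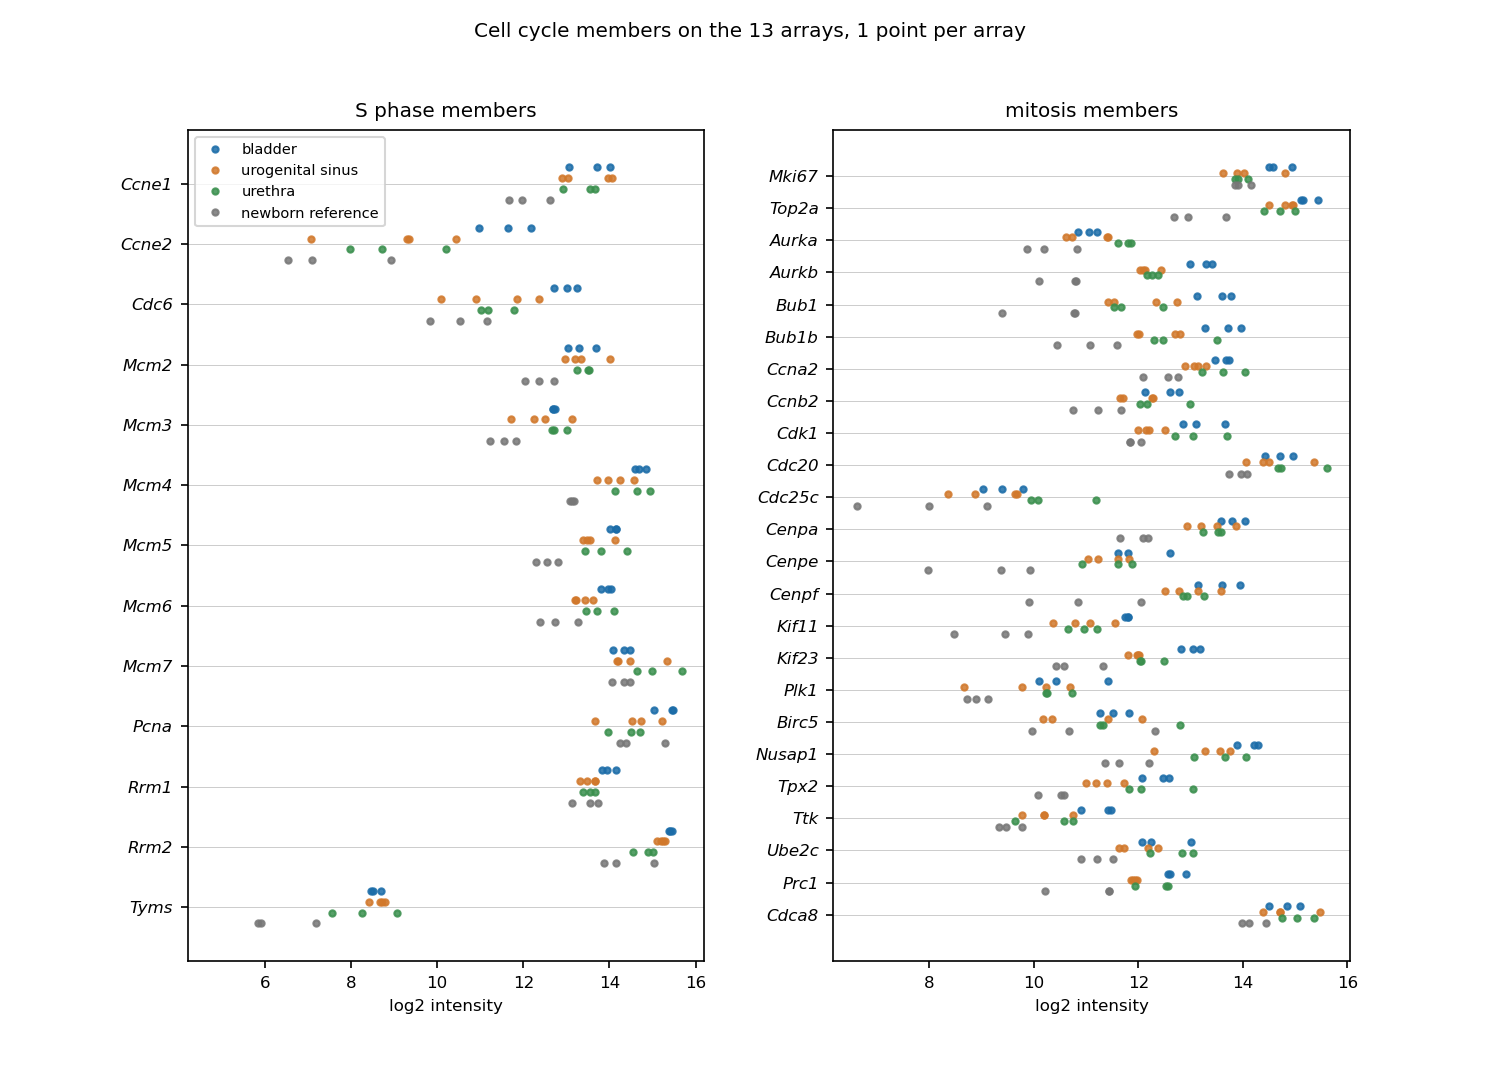
Log2 intensity (horizontal axis) of each of the 37 members on the 13 arrays, with S phase members on the left and mitosis members on the right; each point is 1 array, coloured by bladder, urogenital sinus, urethra or newborn reference. For Aurkb, the bladder points at 12.99 to 13.41 lie to the right of every other array.

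Values are log2 intensities, and a difference of 1 on this scale is a doubling. They are listed in replicate order, that is 2, 6 and 8 for the bladder, 1, 2, 6 and 7 for the sinus, 1, 2 and 6 for the urethra and 1 to 3 for the reference. The arrays were not uniform: bladder arrays had median intensities of 142 to 238, below all sinus arrays (259 to 389), with urethra arrays at 221 to 378. Beta-actin signal at the 3' end over that at the 5' end, which grows as RNA shortens, had a log2 ratio of 4.04 for bladder replicate 8, of 3.42 for urethra replicate 1 and of 1.21 to 2.72 elsewhere among the regions. For Gapdh this ratio was 4.26 to 5.26 in the bladder, 2.92 to 4.83 in the sinus and 2.71 to 4.59 in the urethra. The part of RNA length in the members' differences was not tested. Most smooth muscle markers had the labelled pattern, with a mean over 8 genes of 11.39 to 12.14 in the bladder, 8.75 to 10.39 in the sinus and 10.61 to 11.97 in the urethra. Desmin (Des), 1 of the 8, ran the other way, from 5.65 to 7.197 on bladder arrays and from 7.83 to 9.79 on sinus arrays.

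The first comparison asked how the dividing-cell program of the bladder differs from that of the sinus. Members were mostly higher in the bladder: 33 of 37 had a difference above 0, against 38.2% of all genes tested, and the median difference was 0.56, against -0.19 over all genes. The bladder arrays lay wholly above the sinus arrays for 18 members and wholly below for none, where 7.28% of all genes lay wholly above and 10.6% wholly below. With limma and adjustment over all 15019 genes, however, only 2 of the 37 passed an adjusted p of 0.05, Aurkb and Kif23, both mitotic and both higher in the bladder; 0.812% of all genes were called higher. Another 15 members had an unadjusted p under 0.05 without passing, which makes 17 of 37 in all, against 17.2% of all genes.

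Aurkb encodes Aurora B, the kinase of the chromosomal passenger complex that corrects spindle attachments. Its level was 13.41, 13.29 and 12.99 in the bladder, 12.03, 12.13, 12.43 and 12.09 in the sinus, 12.26, 12.16 and 12.38 in the urethra, and 10.79, 10.09 and 10.80 in the reference. The bladder arrays thus stood apart from the others, and sinus and urethra overlapped. The bladder exceeded the sinus by 1.06 (SE 0.19, limma adjusted p = 0.0224), a 2.08-fold difference. Its other probe set gave 1.24 in the same direction, and both have suffixes (_x_at and _s_at) that mark probes able to bind related transcripts.

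Kif23 encodes a motor of the centralspindlin complex, which builds the spindle midzone for cytokinesis. It stood at 13.18, 13.04 and 12.82 in the bladder and at 11.97, 11.81, 12.00 and 11.99 in the sinus. In the urethra it was 12.03, 12.49 and 12.05, and in the reference 11.32, 10.58 and 10.43. Every bladder array was above every other array, and the bladder exceeded the sinus by 1.07 (SE 0.19, limma adjusted p = 0.0228). The call rests on 1 probe set. Another kept probe set of Kif23, with a mean level of 7.47, gave -0.31. Its values were 8.39, 8.09 and 5.96 in the bladder, the last being replicate 8, and 8.05, 7.11, 7.68 and 8.33 in the sinus. With a gene's probe sets averaged Kif23 was 0.38 higher (limma adjusted p = 0.698).

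Both calls were lost when bladder replicate 2 (adjusted p = 0.121 for Aurkb and 0.122 for Kif23), bladder replicate 6 (0.117 for each) or sinus replicate 2 (0.0661 and 0.0681) was left out, and that of Kif23 without sinus replicate 6 (0.0658) or with quantile normalization (0.0607). With title number as a block neither passed (0.0913 and 0.108). Titles were sorted into 3 styles, 1 reference array by judgement, and the styles may or may not mark batches. Within the style that holds 2 bladder and 3 sinus arrays, Aurkb differed by 1.15 and Kif23 by 1.18, and within the style with 1 array of each by 0.89 and 0.83. Over all members the difference was above 0 for 33 and for 36 of 37 within these styles.

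Bub1 and Bub1b, of the spindle checkpoint, had larger differences than Aurkb and Kif23, with wider spread. Bub1, a kinetochore kinase of the spindle checkpoint, was 13.12, 13.77 and 13.60 in the bladder, 11.42, 11.54, 12.34 and 12.74 in the sinus, 11.53, 11.68 and 12.47 in the urethra, and 10.76, 9.38 and 10.79 in the reference. The groups did not overlap between bladder and sinus, but the sinus spanned more than a doubling, and the difference of 1.49 (SE 0.37) had an adjusted p of 0.0713. Its other probe set gave 0.14. Bub1b, the checkpoint protein BubR1, differed by 1.28 (SE 0.34, adjusted p = 0.0904) and Ttk, the checkpoint kinase Mps1, by 1.04 (SE 0.35, adjusted p = 0.164). Plk1, Polo-like kinase, gave 0.81 (SE 0.49) and Aurka, the spindle pole kinase Aurora A, 0.00 (SE 0.26).

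Read from their brightest probe sets, spindle and midzone members all lay above 0, from 0.77 to 1.07. Besides Kif23 these were the microtubule bundler Prc1 at 0.77 (SE 0.21, adjusted p = 0.0907), the spindle assembly factor Tpx2 at 1.04 (SE 0.32), the spindle protein Nusap1 at 0.91 (SE 0.36) and the bipolar spindle motor Kif11 at 0.83 (SE 0.29). None of these 4 passed, though none overlapped. Other kept probe sets gave 1.14 for Prc1 and 1.11, 0.11 and 0.05 for Tpx2. Those of Kif11 gave 1.19 and -0.06 and that of Nusap1 -0.66, so the direction of Nusap1 depends on the probe set. Cdk1, the central mitotic kinase, gave 0.99 (SE 0.28, adjusted p = 0.108), its cyclins Ccna2 and Ccnb2 each 0.53 (SE 0.22 and 0.30), and its activating phosphatase Cdc25c 0.26 (SE 0.45). Kinetochore members did not pass: Cenpa, the centromeric histone, gave 0.43 (SE 0.24), Cenpe, a kinetochore motor, 0.58 (SE 0.34), and Cenpf 0.56 (SE 0.29). The proliferation antigen Mki67 gave 0.59 (SE 0.27) and the topoisomerase Top2a 0.43 (SE 0.21). Other kept probe sets gave -0.37 and -0.99 for Cenpa, -0.13 for Cenpe, 0.49 and -1.23 for Cenpf and -1.20 for Top2a. The direction of Cenpa, Cenpe, Cenpf and Top2a thus depends on the probe set. The remaining mitotic members had adjusted p of 0.469 or more: Ube2c, a ubiquitin-conjugating enzyme of the anaphase-promoting complex, 0.45 (SE 0.31), its activator Cdc20 0.12 (SE 0.34), and the passenger proteins Birc5 (survivin) 0.53 (SE 0.52) and Cdca8 (borealin) -0.01 (SE 0.28). The other kept probe sets of Cdc20 gave 0.65 and 0.91, and those of Cdca8 0.91 and 0.33. The size of the difference of Cdc20 and Cdca8 thus depends on the probe set.

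In the S phase class no member passed, although 6 of 13 did not overlap. Cdc6, the origin-licensing ATPase, was 12.72, 13.01 and 13.24 in the bladder, 10.09, 10.91, 11.86 and 12.36 in the sinus, 11.17, 11.02 and 11.79 in the urethra, and 11.15, 10.54 and 9.83 in the reference. The bladder was uniformly high, while the sinus spread over more than 2 units on the log2 scale and reached into the range of the reference. The difference was 1.69 (SE 0.48, adjusted p = 0.108). Ccne2, cyclin E2, showed the same shape at lower intensity: 12.18, 11.64 and 10.96 in the bladder, 7.06, 9.34, 10.44 and 9.30 in the sinus, 7.98, 8.72 and 10.21 in the urethra, and 8.94, 7.09 and 6.53 in the reference. Its difference of 2.56 was the largest of any member, but with an SE of 0.78 the adjusted p was 0.129. The second E-type cyclin, Ccne1, gave 0.11 (SE 0.36).

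Mcm6, a helicase subunit, was 14.03, 13.82 and 13.96 in the bladder and 13.22, 13.61, 13.44 and 13.21 in the sinus, a difference of 0.56 (SE 0.20, adjusted p = 0.192). The groups did not overlap, but the lowest bladder array was close to the highest sinus array. Another kept probe set of Mcm6, with a mean level of 13.39, gave 0.14. On it sinus replicate 1, at 14.05, lay above every bladder array. The other helicase subunits were split, with Mcm4 at 0.58 (SE 0.26), Mcm5 at 0.48 (SE 0.26), Mcm3 at 0.31 (SE 0.30), Mcm2 at -0.05 (SE 0.27) and Mcm7 at -0.24 (SE 0.33). The other kept probe set gave 0.80 for Mcm2 and -0.12 for Mcm5, so the side on which these genes fall depends on the probe set. The sliding clamp Pcna gave 0.78 (SE 0.34). Of the enzymes that make deoxynucleotides, the ribonucleotide reductase subunits Rrm1 and Rrm2 gave 0.45 (SE 0.18) and 0.20 (SE 0.17), and thymidylate synthase Tyms -0.09 (SE 0.37). For Rrm1 the other probe sets gave -1.28 and -0.39, so its direction depends on the probe set.

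**Figure D2:**
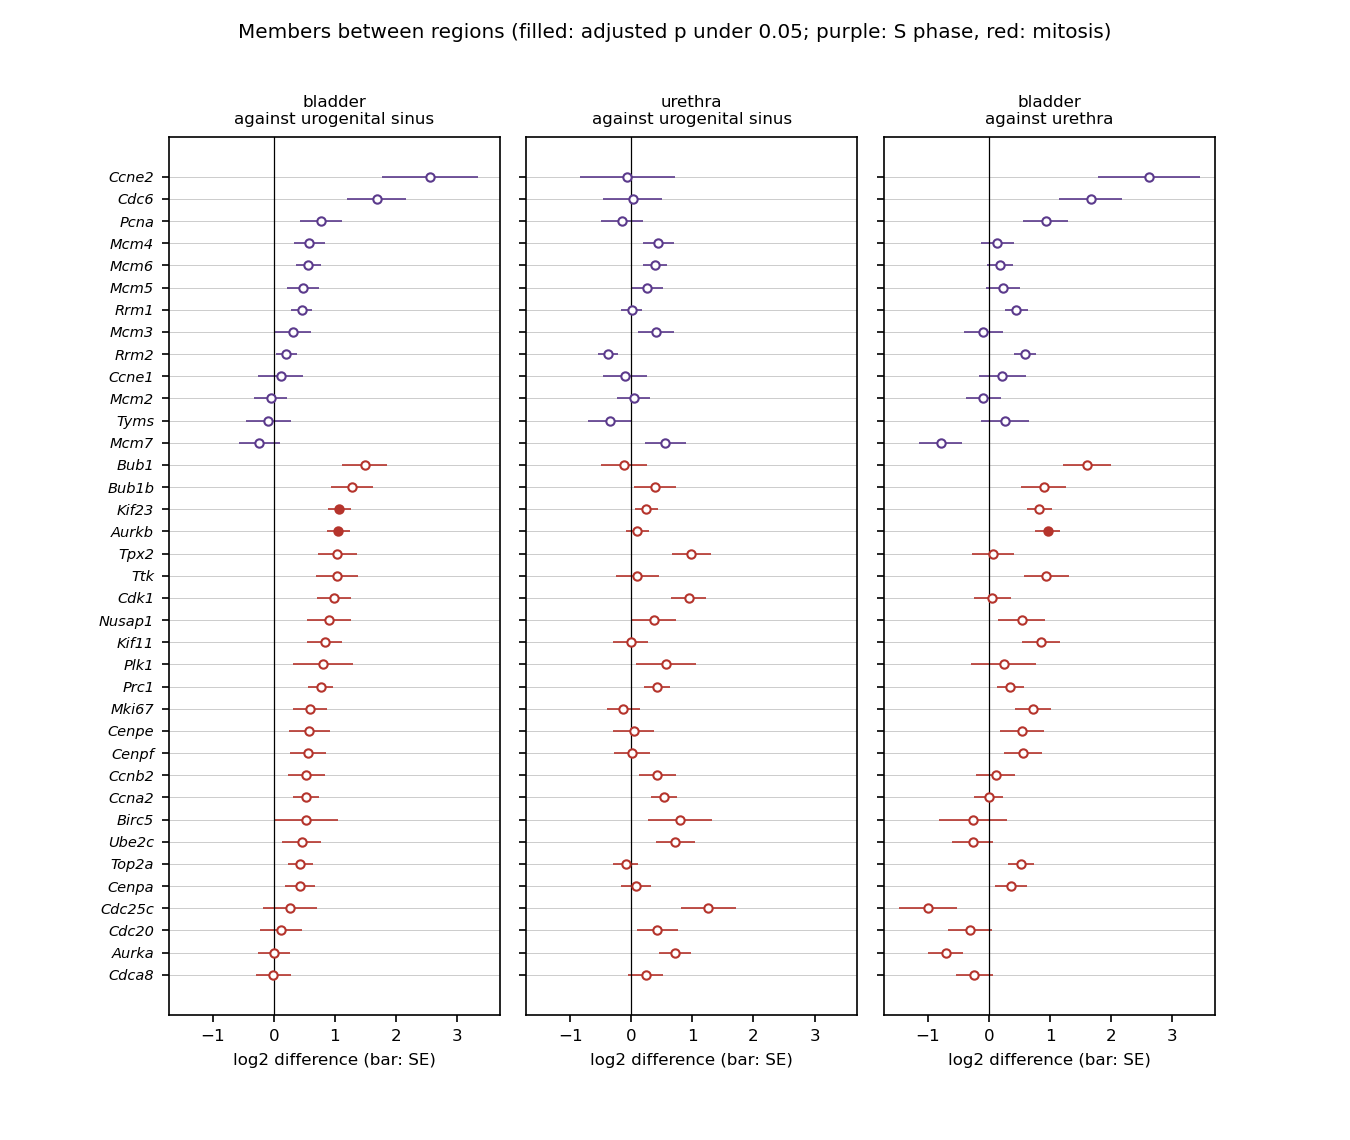
Log2 difference (horizontal axis) with its SE for each of the 37 members between bladder and urogenital sinus, urethra and urogenital sinus, and bladder and urethra, S phase members in purple above mitosis members in red; filled points have an adjusted p under 0.05. Filled points are Aurkb and Kif23 in the first panel and Aurkb in the last, and in the first panel 33 of 37 points lie right of 0.

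Markers of other cell types moved with this comparison. Neuron markers averaged between 6.89 and 8.66 on bladder arrays and between 6.96 and 12.44 on sinus arrays; all 9 tested were lower in the bladder in value, 1 passed the test, and none was at the floor on every array of a region. Sinus replicate 1, with neuron markers at 6.96, had a mitosis mean of 12.28, beside 12.07 to 12.26 for the other sinus arrays, and an S phase mean of 12.63, beside 12.89 to 12.98. Epithelial markers averaged between 10.27 and 11.28 on bladder arrays and between 11.22 and 12.24 on sinus arrays, with 1 of 8 lower by the test. Red cell markers ranged from 8.83 to 9.60 in the bladder, 9.48 to 11.54 in the sinus and 9.32 to 11.38 in the urethra, highest on the arrays numbered 1. Skeletal muscle markers averaged between 6.36 and 6.88 on bladder arrays, 7.19 and 8.74 on sinus arrays and 6.89 and 10.54 on urethra arrays, with 6 of 8 lower than the sinus in value in the bladder and 0 called. Endothelial markers averaged between 9.96 and 10.21 on bladder arrays and between 9.30 and 9.97 on sinus arrays, with 5 of 6 higher in value in the bladder and 0 called. Without both arrays numbered 1, 4 members were called in place of 2, and 766 of all genes in place of 382. The part of these markers in the members' differences was not tested.

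Genes of the same pathway outside the 38, were taken from 3 lists. In value, 47 of 53 other mitosis genes and 28 of 35 other S phase genes lay above 0, but only 17 of 27 G1 regulators and cell cycle inhibitors. Of the 53 mitosis genes, 3 were higher in the bladder and none lower, with a median of 0.51. They were the cytokinesis scaffold Anln at 1.65 (SE 0.31, adjusted p = 0.0274), the condensin II subunit Ncapg2 at 1.85 (SE 0.37, adjusted p = 0.0366) and Racgap1 at 0.97 (SE 0.20, adjusted p = 0.0409), which is the partner of Kif23 in centralspindlin. Of the 35 S phase genes none passed and 8 had an unadjusted p under 0.05; the median was 0.48, and the smallest p belonged to the chromatin remodeller Hells, 1.16 (SE 0.32, adjusted p = 0.0983). Of the 27 G1 regulators and inhibitors, 1 was higher, the E2F repressor E2f8 at 1.77 (SE 0.36, adjusted p = 0.0388), and none was lower, with a median of 0.16 and a mean of -0.06; 4 lay wholly above the sinus and 4 wholly below.

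The urethra was next compared with the same sinus arrays. No member was called, as with nearly all genes (0.00666% were called higher); 7 of 37 had an unadjusted p under 0.05, against 10.4% of all genes. The median was 0.25, against 0.05 over all genes, and 28 of 37 were above 0. The urethra lay wholly above the sinus for 5 members (4.90% of all genes) and wholly below for 1 (3.32% of all genes). Those above were the mitotic genes Aurka, Cdk1, Cdc25c, Kif23 and Tpx2, and the one below was Rrm2.

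Cdk1 stood at 13.70, 12.71 and 13.05 in the urethra, 12.50, 12.15, 12.21 and 11.99 in the sinus, 13.09, 12.85 and 13.66 in the bladder, and 11.83, 11.84 and 12.06 in the reference. Urethra and bladder overlapped and both lay above the sinus; the urethra exceeded the sinus by 0.94 (SE 0.28, adjusted p = 0.295). Tpx2 was 13.05, 12.05 and 11.82 in the urethra and 11.73, 11.40, 11.19 and 11.0004 in the sinus, a difference of 0.98 (SE 0.32, adjusted p = 0.331). Cdc25c was 11.20, 9.94 and 10.07 in the urethra, 9.68, 9.64, 8.88 and 8.36 in the sinus and 9.80, 9.02 and 9.39 in the bladder. For Cdc25c the urethra was thus the highest region, by 1.26 over the sinus (SE 0.45, adjusted p = 0.375). Aurka gave 0.72 (SE 0.26, limma adjusted p = 0.396), and its second kept probe set gave -0.38. Urethra replicate 1 held the highest value of Cdk1, Tpx2 and Cdc25c among the urethra arrays.

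Among S phase members Rrm2 ran the other way. It was 15.02, 14.55 and 14.91 in the urethra, 15.24, 15.11, 15.20 and 15.28 in the sinus, 15.45, 15.38 and 15.40 in the bladder, and 15.03, 14.15 and 13.87 in the reference. The regions formed 3 separate ranges with the urethra lowest, at -0.38 from the sinus (SE 0.17, limma adjusted p = 0.474). The other kept probe sets of Rrm2 gave 0.08 and -0.51, and in both the urethra and sinus ranges overlapped. The urethra arrays share a title style with no other region. Only reference replicate 3, whose title was put in that style by judgement, links them to the rest. With title style in the fit the difference of Rrm2 turned to 0.38. Mcm6, at 13.72, 13.45 and 14.11 in the urethra, overlapped the sinus and differed by 0.39 (SE 0.20, adjusted p = 0.557). Mcm4, at 14.64, 14.12 and 14.94 against 13.70, 13.97, 14.25 and 14.58, differed by 0.44 (SE 0.26, adjusted p = 0.598).

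Between urethra and sinus limma called 0 of 35 other S phase genes (3 with an unadjusted p under 0.05), 0 of 53 other mitosis genes (5) and 0 of 27 G1 regulators and inhibitors (5). The smallest p in each belonged to the replication checkpoint mediator Clspn at 0.65 (SE 0.21, adjusted p = 0.313), the mitotic kinesin Kif20a at 1.25 (SE 0.35, adjusted p = 0.268) and the Cdk4 inhibitor Cdkn2c at 1.22 (SE 0.30, adjusted p = 0.200).

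Between bladder and urethra 1 member was called, Aurkb, higher in the bladder by 0.96 (SE 0.20, limma adjusted p = 0.0303), where 1.71% of all genes were called higher. This call ended without any one of the 3 bladder arrays (adjusted p from 0.0548 to 0.135) or of the 3 urethra arrays (0.0597 to 0.0845). It also ended with quantile normalization (0.0592), median centring (0.100), no floor (0.0512), averaged probe sets (0.0643), title number as a block (0.0844), title style as a block (0.285) and without both arrays numbered 1 (0.0550), so that it held in 9 of 22 alternatives. Of the 37 members, 27 were above 0, with a median of 0.26 against -0.25 over all genes. The bladder lay wholly above the urethra for 13 members (12.0% of all genes) and wholly below for 3 (22.6% of all genes). The 3 were Mcm7, at -0.79 (SE 0.35), Aurka, at -0.71 (SE 0.28), and Cdc25c, at -0.997 (SE 0.48), none of which passed. All 4 kept probe sets of Mcm7 gave values below 0, from -0.97 to -0.79. The second kept probe set of Aurka, with a mean level of 6.83, gave 0.97, and that of Cdc25c -0.68. Markers of other cell types also differed here: of 8 epithelial markers 3 were called lower in the bladder, and 6 lay wholly below the urethra. Of 8 skeletal muscle markers 7 were below 0, of 9 neuron markers 8 and of 6 red cell markers 6, with 0 called in these 3 lists, and 1 of 6 endothelial markers was called higher. Their part in the members' differences was not tested.

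Kif23 and Bub1 came close to the threshold in this comparison, at 0.83 (SE 0.20) and 1.60 (SE 0.40), each with an adjusted p of 0.0530. Rrm2 gave 0.59 (SE 0.18, adjusted p = 0.0952), which turned to -0.16 with title style in the fit. Cdc6 gave 1.67 (SE 0.52, adjusted p = 0.0991) and Ccne2 2.62 (SE 0.83, adjusted p = 0.104), with the array values above and no overlap. Genes that hardly differed were Ccna2 at -0.01 (SE 0.23), Cdk1 at 0.05 (SE 0.30) and Tpx2 at 0.06 (SE 0.34).

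Of the other S phase genes 2 of 35 were higher in the bladder than in the urethra, the DNA polymerase alpha subunit Pola1 at 1.35 (SE 0.27, adjusted p = 0.0265) and Hells at 1.57 (SE 0.34, adjusted p = 0.0356). Of the other mitosis genes 2 of 53 were higher, Ncapg2 at 2.29 (SE 0.40, adjusted p = 0.0170) and the centrosomal kinase Nek2 at 1.64 (SE 0.39, adjusted p = 0.0473). Among the 27 G1 regulators and inhibitors, the growth arrest gene Gas1 was higher by 1.00 (SE 0.23, adjusted p = 0.0454) and the antiproliferative gene Btg1 fell by 1.38 (SE 0.24, adjusted p = 0.0160).

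S phase and mitosis members were then set against each other by the mean of each class on each array. The S phase mean was 13.51, 13.39 and 13.39 in the bladder, 12.63, 12.95, 12.98 and 12.89 in the sinus, and 12.99, 12.78 and 13.06 in the urethra. The mitosis mean was 12.85, 12.78 and 12.97 in the bladder, 12.28, 12.26, 12.07 and 12.14 in the sinus, and 12.72, 12.44 and 12.53 in the urethra. For both classes the bladder lay above the other regions without overlap. Urethra and sinus overlapped in the S phase mean and were separate in the mitosis mean of the members. In the mean of the other mitosis genes they overlapped, at 11.50, 11.31 and 11.37 in the urethra and 11.33, 11.31, 11.19 and 11.16 in the sinus.

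The S phase mean minus the mitosis mean was 0.66, 0.61 and 0.42 in the bladder, 0.34, 0.69, 0.91 and 0.75 in the sinus, 0.27, 0.34 and 0.53 in the urethra, and 0.87, 0.97 and 0.71 in the reference. Only its shift between arrays can be read, since the level of one probe set cannot be set against another's. The 3 regions overlapped. From the sinus to the bladder this value shifted by -0.11, and to the urethra by -0.29, where arrays of 1 region varied with an SD of 0.19. In the other S phase and mitosis genes the urethra had 0.80, 0.65 and 0.75 and the sinus 0.67, 0.93, 0.69 and 0.74, which differ by less than their spread. With title style in the fit, again linked through reference replicate 3 alone, the urethra shift was -0.082.

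**Figure D3:**
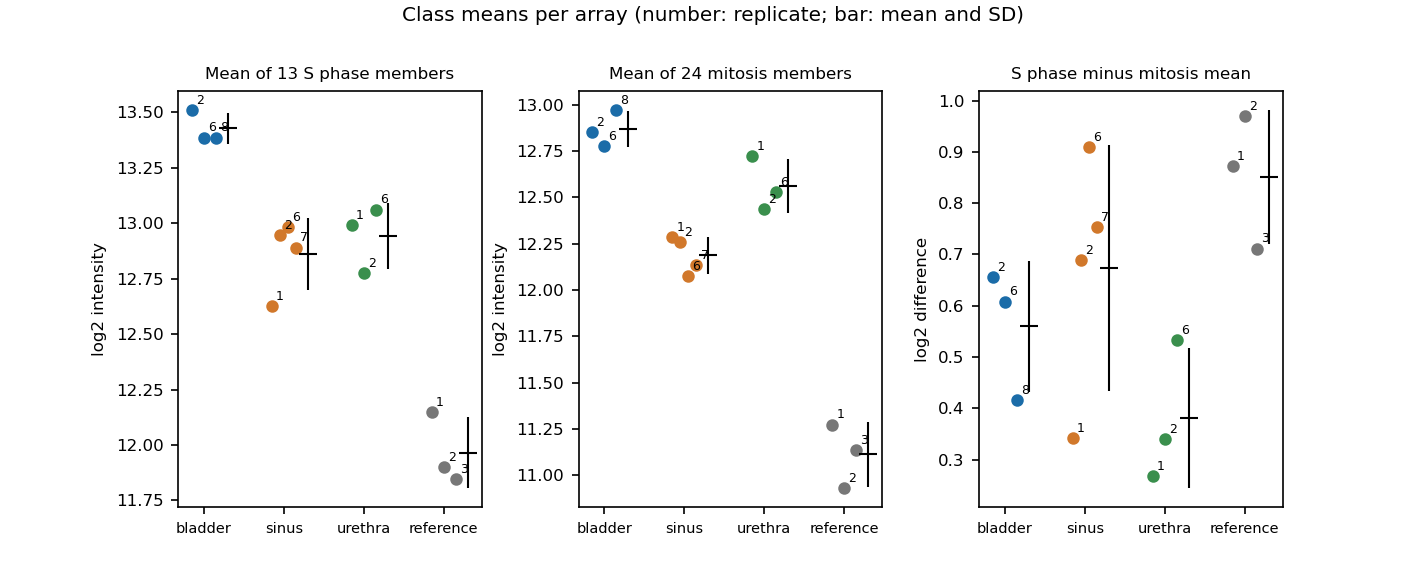
Mean log2 intensity of the 13 S phase members (left), of the 24 mitosis members (centre) and their difference (right) on each array, labelled by replicate, with the group mean and SD as bars. Bladder is highest in the first panels, while the difference ranges from 0.42 to 0.66 in the bladder, 0.34 to 0.91 in the sinus and 0.27 to 0.53 in the urethra.

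The largest differences were those from the newborn reference. The 3 reference arrays entered as the mean of 1 sample, and all 3 comparisons share it. The bladder exceeded the reference for 37 of 37 members in value and for 21 by the test (7 of 13 S phase, 14 of 24 mitosis), where 5.82% of all genes were called higher. In the sinus 9 members were called (2 and 7), against 4.62% of all genes, and in the urethra 14 (2 and 12), against 4.36%. No member was called lower in any of these comparisons. The medians were 1.57, 0.93 and 1.34, against -0.27, -0.01 and 0.06 over all genes. Without bladder replicate 8, 13 members were called in the bladder; in the urethra 7 or 8 were called without any one of the bladder arrays, sinus replicate 6, or urethra replicates 1 or 6.

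Aurkb had the smallest adjusted p of the members in each comparison, at 2.67 in the bladder (SE 0.29, adjusted p = 0.000166), 1.61 in the sinus (SE 0.28, adjusted p = 0.00364) and 1.71 in the urethra (SE 0.29, adjusted p = 0.00343). Kif23 rose with it, by 2.24 (SE 0.29), 1.17 (SE 0.28) and 1.41 (SE 0.29). Another kept probe set of Kif23, with a mean level of 7.47, gave 0.65, 0.96 and 0.81. With probe sets averaged Kif23 was 1.44 higher in the bladder and was not called (limma adjusted p = 0.230). Top2a, which untangles replicated DNA, was 15.11, 15.44 and 15.15 in the bladder, 14.96, 14.50, 14.81 and 14.95 in the sinus, 15.001, 14.41 and 14.72 in the urethra, and 13.68, 12.68 and 12.96 in the reference. All 10 region arrays lay above the reference, by 2.13 (SE 0.31), 1.70 (SE 0.30) and 1.61 (SE 0.31). A second kept probe set of Top2a, with a mean of 9.29, gave -1.66 between bladder and reference. With probe sets averaged Top2a was called in no region (limma adjusted p = 0.825 in the bladder, 0.575 in the sinus and 0.689 in the urethra).

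The 3 kinetochore members were called in all 3 regions, with each gene read from its brightest probe set. With probe sets averaged, Cenpa and Cenpf were called in none (adjusted p of 0.408, 0.329 and 0.484 for Cenpa and of 0.228, 0.230 and 0.416 for Cenpf, in the order bladder, sinus, urethra), and Cenpe in the bladder alone (0.0441, 0.0629 and 0.245). Cenpf was 13.14, 13.59 and 13.95 in the bladder, 13.14, 12.50, 12.78 and 13.58 in the sinus, 12.93, 12.85 and 13.25 in the urethra, and 10.85, 9.90 and 12.05 in the reference, which itself spanned more than 2 units. Cenpe was 11.60, 11.80 and 12.61 in the bladder, 11.60, 11.03, 11.23 and 11.82 in the sinus, 11.87, 10.92 and 11.60 in the urethra, and 9.37, 9.92 and 7.98 in the reference. Regions overlapped for both genes, and no region array reached down to the reference. The differences in the bladder were 2.63 (SE 0.44) for Cenpf, 2.92 (SE 0.51) for Cenpe and 1.83 (SE 0.37) for Cenpa.

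Kif11 was 11.74, 11.80 and 11.81 in the bladder, 10.37, 10.80, 11.08 and 11.55 in the sinus, 11.20, 10.64 and 10.96 in the urethra, and 9.89, 8.47 and 9.45 in the reference. It was called in each region, by 2.51 (SE 0.44), 1.68 (SE 0.43) and 1.67 (SE 0.44). Prc1 was 12.56, 12.60 and 12.91 in the bladder, 11.98, 11.94, 11.90 and 11.86 in the sinus, 12.52, 11.94 and 12.56 in the urethra, and 11.44, 11.45 and 10.21 in the reference. Bladder and urethra passed, at 1.66 (SE 0.31) and 1.31 (SE 0.31), while the sinus gave 0.89 (SE 0.30, adjusted p = 0.0890). Whether these effects differ is tested by the comparisons of regions above, in which Aurkb and Kif23 were the only members called.

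Mitotic members called in the bladder alone were Bub1 at 3.19 (SE 0.57, adjusted p = 0.00394), Bub1b at 2.61 (SE 0.52, adjusted p = 0.00756), Nusap1 at 2.40 (SE 0.55, adjusted p = 0.0147) and Ttk at 1.74 (SE 0.53, adjusted p = 0.0495). Called in bladder and urethra were, besides Prc1, Tpx2 at 1.98 and 1.91 and Ccna2 at 1.15 and 1.16. Aurka and Cdc25c passed in the urethra alone, at 1.45 (SE 0.40) and 2.50 (SE 0.67). A second kept probe set of Aurka, with a mean level of 6.83, gave -1.23 there, and that of Cdc25c 1.97. Aurka was called in 12 of 25 alternatives and Cdc25c in 17. Ccnb2, Cdk1, Cdc20, Plk1, Ube2c, Birc5, Cdca8 and Mki67 were called in no region. Mki67 was 14.15, 13.91 and 13.86 in the reference, inside the range of 13.61 to 14.94 of the regions, and differed from it by 0.71 (SE 0.41), 0.11 (SE 0.40) and -0.02 (SE 0.41).

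Of the S phase members, Tyms was called in each region. It was 8.69, 8.50 and 8.46 in the bladder, 8.68, 8.79, 8.41 and 8.71 in the sinus, 9.07, 7.57 and 8.24 in the urethra, and 7.18, 5.85 and 5.92 in the reference. All reference arrays were under the filter level of 7.39, so the folds are bounds against that level: Tyms was at least 2.24-fold higher in the bladder, at least 2.39-fold in the sinus and at least 1.87-fold in the urethra. The 3 other probe sets of Tyms gave -0.76, -1.63 and -0.30 between bladder and reference, and a probe set shared with a Tyms pseudogene was left out.

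Rrm2 was called in bladder and sinus, at 1.06 (SE 0.25) and 0.86 (SE 0.24), and Mcm4 in bladder and urethra, at 1.58 (SE 0.39) and 1.45 (SE 0.39). In the bladder alone Ccne2 passed at 4.07 (SE 1.18, adjusted p = 0.0407), Cdc6 at 2.48 (SE 0.73, adjusted p = 0.0444), Mcm5 at 1.57 (SE 0.40, adjusted p = 0.0242) and Mcm6 at 1.14 (SE 0.31, adjusted p = 0.0310). Ccne1, Mcm2, Mcm3, Mcm7, Pcna and Rrm1 were called in none. Mcm7 gave 0.02 (SE 0.50) in the bladder, and Pcna, from 13.67 to 15.47 over the regions and at 14.24, 14.38 and 15.28 in the reference, gave 0.69 (SE 0.52), -0.09 (SE 0.50) and -0.24 (SE 0.52).

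**Figure D4:**
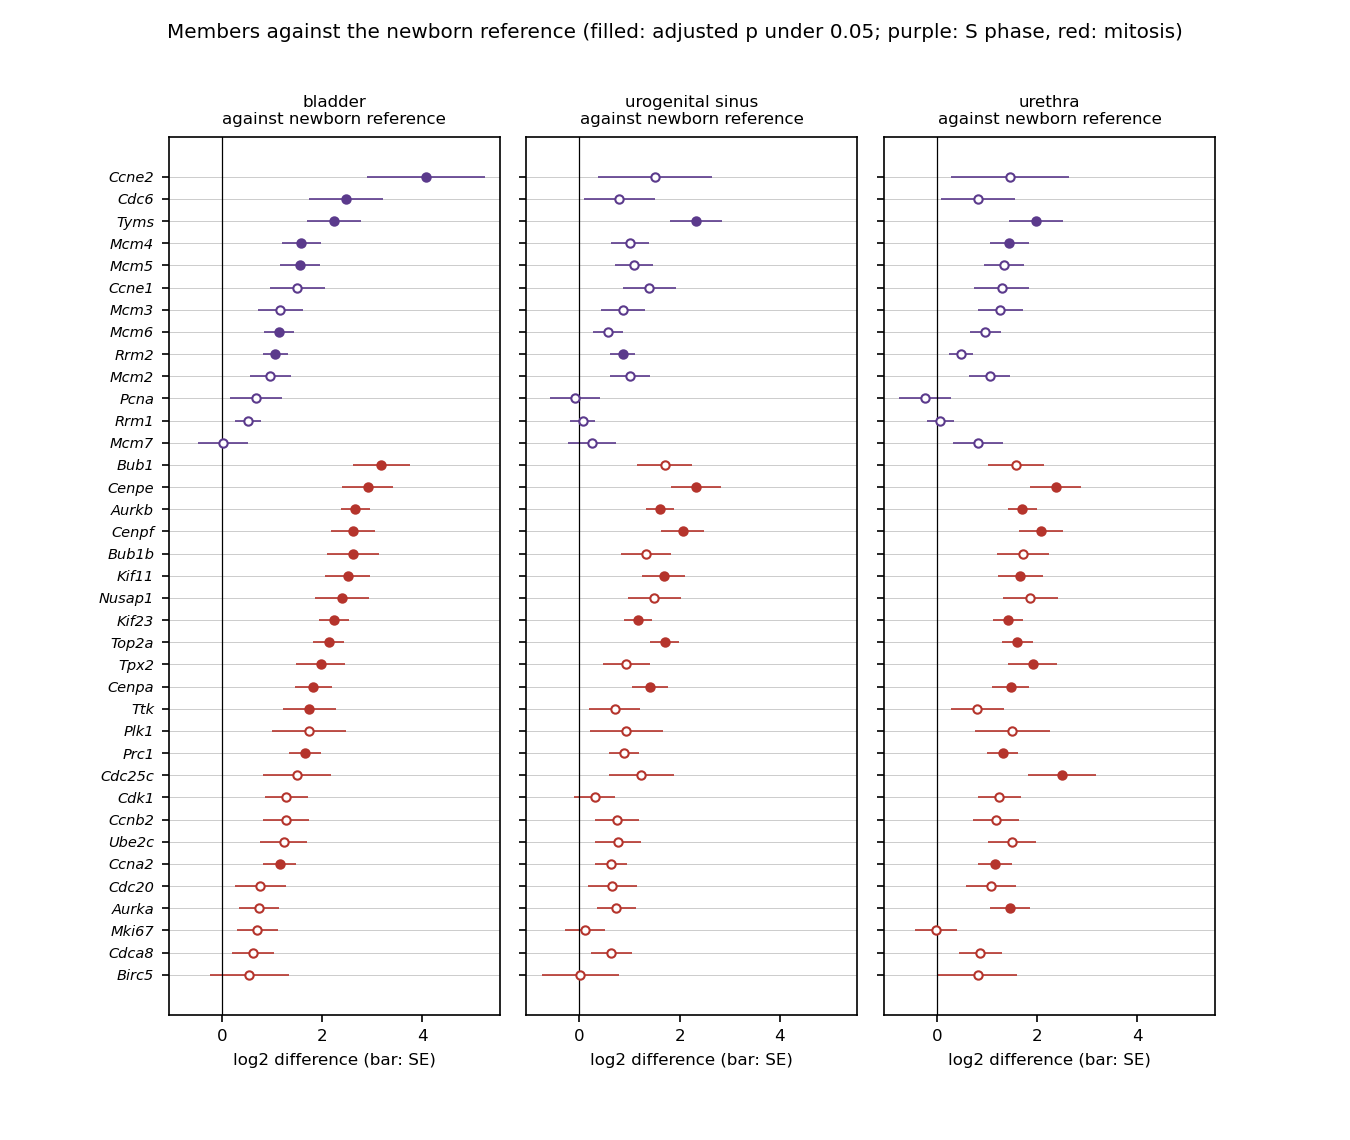
Log2 difference (horizontal axis) with its SE of each of the 37 members between bladder, urogenital sinus or urethra and the newborn reference, S phase members in purple above mitosis members in red; filled points have an adjusted p under 0.05. The filled points number 21, 9 and 14, all right of 0.

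The S phase mean minus the mitosis mean shifted from the reference by -0.29 in the bladder, -0.18 in the sinus and -0.47 in the urethra. Without the 6 members whose phase is broad the bladder shift was -0.62. The sinus shift is smaller than the SD of 0.19 between arrays of 1 region and was 0.014 with array weights. The sinus arrays overlapped the reference arrays, while bladder and urethra arrays lay below them. Taken from the other S phase and mitosis genes, the same value was 0.63, 0.50 and 0.69 for bladder arrays. These lay below every reference array (1.05, 0.78 and 0.88). Urethra arrays, at 0.80, 0.65 and 0.75, overlapped the reference arrays there, so the separation of the urethra was not repeated. In the other genes of the pathway, 14 of 35 S phase genes were higher than the reference in the bladder, 9 in the sinus and 7 in the urethra, and 25, 10 and 11 of 53 mitosis genes. Examples with the smallest adjusted p in the bladder were Pola1 at 2.78 (SE 0.38), the GINS helicase subunit Gins1 at 3.14 (SE 0.48), the spindle pole protein Aspm at 2.30 (SE 0.31) and the spindle protein Tacc3 at 2.24 (SE 0.31).

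Among G1 regulators and inhibitors some genes were lower than the reference. Cdkn1a, the Cdk inhibitor p21, was called lower in each region, at -2.99 in the bladder (SE 0.45, adjusted p = 0.00150), -2.30 in the sinus (SE 0.43, adjusted p = 0.00597) and -2.86 in the urethra (SE 0.45, adjusted p = 0.00228). The retinoblastoma gene Rb1 was lower at -2.81 (SE 0.61) in the bladder and -2.39 (SE 0.61) in the urethra, and Cdkn2c at -1.63 (SE 0.43) in the sinus. Cdk4, the G1 kinase, was higher in all 3, at 1.18 (SE 0.35), 1.26 (SE 0.34) and 1.67 (SE 0.35). Also higher were E2f3, at 1.63 in the bladder (SE 0.35) and 1.26 in the sinus (SE 0.34), and in the bladder Rbl1 at 2.27 (SE 0.52), E2f8 at 2.18 (SE 0.55) and Gas1 at 1.17 (SE 0.33).

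Finally, stage 22 was compared with stage 21 with region in the fit, 5 arrays each. No member and 0% of all genes passed with limma; 11 of 37 members had an unadjusted p under 0.05, against 25.5% of all genes, and with array weights 2 members and 1421 of the 15019 genes passed. The smallest p among members was that of Bub1, with stage 22 minus stage 21 at 0.86 (SE 0.15, adjusted p = 0.0770), followed by Cdc6 at 1.00 (SE 0.27, adjusted p = 0.0856). Cenpa gave -0.46 (SE 0.14, adjusted p = 0.104) and Plk1 -0.93 (SE 0.30, adjusted p = 0.114). Pcna gave 0.64 (SE 0.22, adjusted p = 0.122) and Mcm2 -0.48 (SE 0.17, adjusted p = 0.124), so members lay on both sides of 0, 18 of 37 above it, with a median of -0.09 against -0.11 over all genes.

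The array values show the stage pattern within regions for the first of these genes. In the sinus Bub1 was 11.42 and 11.54 at stage 21 and 12.34 and 12.74 at stage 22, and in the urethra 11.53 and 11.68 against 12.47. In the bladder it was 13.12 at stage 21 and 13.77 and 13.60 at stage 22. Every region thus had its lower arrays at stage 21, as it also did for Cdc6, at 10.09 and 10.91 against 11.86 and 12.36 in the sinus. Plk1 was 10.23 and 10.70 against 9.77 and 8.66 in the sinus, and 11.42 against 10.10 and 10.41 in the bladder; the urethra, at 10.73 and 10.24 against 10.25, overlapped. Cenpa was 13.51 and 13.86 against 13.21 and 12.92 in the sinus, 14.04 against 13.58 and 13.78 in the bladder, and 13.58 and 13.53 against 13.23 in the urethra. Pcna was 13.67 and 14.53 against 14.74 and 15.22 in the sinus, and Mcm2 14.02 and 13.34 against 13.21 and 12.98. A term for stage effects that differ between regions was called for 0 of 15019 genes, and 0 members had an unadjusted p under 0.05 for it.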

How the data were processed

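Intensity is the unit of the single table that the authors deposited, which lists 45101 probe sets by 13 arrays on a linear scale. Per the labels' protocols, total RNA was amplified in 2 rounds and labelled with biotin. GCOS, an Affymetrix program, is named in the submitters' processing notes; how it was set was not given in the sources used here. Each array's 2% trimmed mean was 1500.01, and no further scaling was applied. The number of arrays limits the precision.

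Intensities were floored at the table's 20th percentile (50.23) and log2 transformed. Of 45037 probe sets without controls, 34945 carried 1 gene symbol, 932 several and 9160 none; 34741 symbols matched the RefSeq gene table of GRCm38.p6. Probe sets above the 40th percentile (167.76) on at least 3 arrays were kept, and the one with the highest mean stood for its gene. Probe sets have no stated build, so none is placed on the genome.

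The model for all genes used limma 3.58.1 (R 4.3.3), with lmFit followed by eBayes and a trend on intensity. The 10 region arrays shared 1 fit, with 7 residual degrees of freedom. Tests were two-sided, with Benjamini-Hochberg adjustment over 15019 genes. The reference was the mean of its 3 arrays, assumed to vary like a region sample. The fit was tested on simulated data with independent normal noise for each gene and array. Those data held no effect shared by an array or an embryo, so the test does not cover such effects. A fold against a group with all arrays under the filter level is a bound against that level.

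The members and the lists of other genes were chosen with earlier results of these data known. Array values are given for called members (up to 6 in each direction by adjusted p), or, with fewer than 3 called, for the 3 smallest p in each class; other members are given by difference. Of the other lists, up to 4 called genes in each direction are named, or the smallest p. The alternatives are listed at the end. Title numbers were tested as pairs: deviations from the region mean correlated at -0.17 to 0.36 over 7 same-number pairs and at -0.51 to 0.41 over 26 other pairs, so the numbers were not used as pairs.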

Additional observations from a re-analysis of the deposited data

Results flagged for a closer look

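Kif23 in the urogenital sinus held 1 array apart from the others: replicate 2 was at 11.81, while the other 3 arrays lay between 11.97 and 12.00, a gap of 0.855 of the whole range. Such gaps occur by chance in about 1 of 20 groups of this size, and the size of the gap on the log2 scale is small beside the difference of 1.07 between bladder and sinus. Without this array Kif23 was 1.03 higher in the bladder (limma adjusted p = 0.0681).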

How the results depend on the processing

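For the 14 counts and class differences, the alternatives below moved the result; all others were within 1.5 times the count or 1 SD. Of bladder against sinus, 2 members were called, but 1 with quantile normalization, with averaged probe sets and with title number as a replicate block (Bub1, not Aurkb or Kif23), 4 with Theiler stage as covariate or without both arrays numbered 1, and 18 with array weights. Of bladder against urethra, 1 was called, but 0 with median centring, averaged probe sets, title style as a block or without both arrays numbered 1, 2 with a floor at the 40th percentile or no filter, 3 with stage as covariate and 7 with array weights. For urethra against sinus, array weights gave 2 in place of 0. Stage gave 1 with no floor and 2 with array weights. Against the reference, the sinus gave 4 with median centring, 20 with array weights and 19 with 3 reference samples, in place of 9, and the urethra 5, 23 and 28 in place of 14. Averaged probe sets lowered these counts too, though within 1.5 times. They gave 14 in the bladder in place of 21, 6 in the sinus and 10 in the urethra. Leaving out 1 array at a time gave 0 to 3 (bladder and sinus), 0 to 5 (bladder and urethra), 13 to 21 (bladder and reference), 6 to 11 (sinus and reference) and 7 to 17 (urethra and reference), with 0 in the others. Of S phase minus mitosis, title style moved urethra against sinus to -0.082 and bladder against urethra from 0.18 to -0.031, array weights moved sinus against reference to 0.014, and leaving out members whose phase is broad (Mki67, Top2a, Ccna2, Ccne1, Ccne2 and Cdk1) moved bladder against reference to -0.62. Title style turned Rrm2 to 0.38 (urethra and sinus) and -0.16 (bladder and urethra), and averaged probe sets turned Tyms to -0.11 (bladder and reference). The cause was not tested. Of the single-gene results, 1382 kept direction and side of the threshold, 204 lost the call, 27 gained it and 3 reversed. Median centring moved the median of all genes between bladder and sinus from -0.19 to 0.40 and quantile normalization to 0.04, and the members' median stood above it by 0.48 to 0.87 in all alternatives. With the block the 1 member called between bladder and urethra was likewise Bub1. The numbers do not pair the samples.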
